A study of Mus musculus with 2 samples.

Results

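Mouse bone marrow cells from 2 tissues were compared for 10 genes that encode transcription factors of the lymphoid lineages. The genes were Pax5, Lef1, Sox4, Erg, Bach2, Ikzf1, Ikzf3, Irf4, Irf8 and Spib, which were taken by symbol from the 34184 genes listed in each library. Each symbol matched 1 gene (Pax5 is ENSMUSG00000014030, Lef1 ENSMUSG00000027985, Sox4 ENSMUSG00000076431, Erg ENSMUSG00000040732, Bach2 ENSMUSG00000040270, Ikzf1 ENSMUSG00000018654, Ikzf3 ENSMUSG00000018168, Irf4 ENSMUSG00000021356, Irf8 ENSMUSG00000041515 and Spib ENSMUSG00000008193). They were chosen for their role, but with earlier results of these data known. Counts of these genes below are therefore not independent of the data. All 10 were detected in both libraries and none was lost to a filter, although not every gene reached the minimum for a ratio in every class.

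The 2 tissues were femur bone marrow and the marrow of ectopic bone, each a single droplet library of single cells, so the tissues could be described but not tested. Ectopic bone had been raised under the skin of C57BL6 or Cxcl12-GFP mice with 8 µg of BMP-2, a bone-inducing growth factor, on 40 mg of β-TCP, a calcium phosphate carrier, and was taken after 4 weeks. In both tissues the hematopoietic cells came from C57BL6J mice, and the CAR cells, the stromal cells rich in Cxcl12, came from Cxcl12-GFP reporter mice. Both kinds of cell were pooled into the library of their tissue, so the mixture of genotypes (WT and Cxcl12-GFP) was shared by both groups. The age and sex of the mice and the number of animals per library are not given in the sources used here.

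Lymphocyte development runs through stages that are marked by the antigen receptor genes. Pro-B cells rearrange the immunoglobulin heavy chain, large pre-B cells divide under signals from the pre-B cell receptor, small pre-B cells stop dividing and rearrange a light chain, and immature B cells carry surface IgM before they become mature B cells with IgD. Pax5 commits cells to the B lineage and holds them there, while the zinc finger proteins Ikaros (Ikzf1) and Aiolos (Ikzf3) and the interferon regulatory factors Irf4 and Irf8 act at the exit from the dividing pre-B stage. Lef1 and Sox4 are HMG-box proteins of early lymphocytes, Erg and Spib belong to the ETS family, and Bach2 is a bZIP repressor that restrains plasma cell and effector fates. Outside the B lineage, Irf8 directs plasmacytoid and type 1 dendritic cells, Spib acts in plasmacytoid dendritic cells, and Lef1 and Bach2 are known from naive T cells.

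Promoter sequences are shown for 3 of the genes that step in order along the B lineage below, so that the DNA next to their starts can be read beside their levels. RefSeq windows (build GRCm38.p6) were held for 9 of the 10 genes, with 16 windows in all and 1 window each for 5 genes. Ikzf3 had none in the table. The 250 bases before the start are given 5′ to 3′ on the strand of the gene, in lower case. Capitals mark matches to an E box (CAGNTG) in Sox4, to an E box and the Ebf1 core (CCCNNGGG) in Spib and to an ETS-IRF composite (GGAA, any 2 bases, then GAAA) in Bach2.
Sox4, chr13:28953700-28953949, strand -: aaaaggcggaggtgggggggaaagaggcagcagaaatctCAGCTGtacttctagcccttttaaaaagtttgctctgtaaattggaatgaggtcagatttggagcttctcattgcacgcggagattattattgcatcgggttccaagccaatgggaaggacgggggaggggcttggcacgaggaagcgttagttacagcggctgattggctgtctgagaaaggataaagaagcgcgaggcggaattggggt
Bach2, chr4:32417185-32417434, strand +: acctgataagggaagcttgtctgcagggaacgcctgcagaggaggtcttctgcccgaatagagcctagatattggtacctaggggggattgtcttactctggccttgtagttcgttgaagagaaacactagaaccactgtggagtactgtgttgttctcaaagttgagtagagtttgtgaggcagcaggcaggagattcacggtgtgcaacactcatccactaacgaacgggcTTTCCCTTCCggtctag
Spib, chr7:44532072-44532321, strand -: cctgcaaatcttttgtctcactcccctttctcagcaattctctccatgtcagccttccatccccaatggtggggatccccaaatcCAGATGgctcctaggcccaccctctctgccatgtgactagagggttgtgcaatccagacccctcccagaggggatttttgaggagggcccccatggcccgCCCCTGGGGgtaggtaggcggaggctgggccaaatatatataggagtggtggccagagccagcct
The Sox4 E box lies at bases 211 to 206 before the start, and the Spib E box at 165 to 160. In Spib, matches to the Ebf1 core overlap at bases 65 to 58 and 64 to 57. The Bach2 match reads on the minus strand of the gene at bases 17 to 8. Both strands were searched in 32851 RefSeq windows of this length, of which 44.8% held an E box, 11.8% the Ebf1 core and 2.3% the composite. Among the 16 windows of the 10 genes, 5, 3 and 1 held them. These letters are a description of the DNA, the motifs and genes shown were picked after the matches were seen, and no binding was measured.

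The femur library held 11148 cell barcodes with a median of 8377.5 UMIs (single RNA molecules counted by their tags) and the ectopic library 7214 with a median of 8803.5. After filters and removal of predicted doublets, 9755 and 6425 cells remained, and 26 barcode sequences occurred in both libraries. Classes were rebuilt here from marker genes that exclude the 10 genes, and the 10 genes were also kept out of the clustering. Each class name below therefore means cells like the named type. Each B lineage stage was a single cluster that both libraries shared. A further cluster of 29 femur and 25 ectopic cells, with a median of 1406 and 1411 UMIs, stayed unnamed and was left out. It was led by a gene model and had Bank1 and Ikzf3, 1 of the 10 genes, among its leading genes. Levels are given as CPM (counts per 1e6 UMIs of the class), with exact Poisson 95% intervals on the sums, and ratios between libraries carry exact binomial 95% intervals. These intervals cover counting error only, not the spread between animals. CPM is not scaled by gene length, so levels are compared for 1 gene at a time. A ratio was called past 1.5-fold only as a rule of size, for genes with at least 50 UMIs over both libraries in classes of at least 20 cells in each.

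The B lineage held 2637 femur and 2164 ectopic cells, and its stages were present in both tissues in different proportions. Pro-B cells made up 9.40% of B lineage cells in the femur (248 cells) and 4.53% in the ectopic marrow (98 cells). Cycling pre-B cells made up 13.3% and 5.87% (351 and 127 cells), small pre-B cells 29.96% and 19.1% (790 and 414), immature B cells 16.5% and 19.3% (436 and 418), and mature B cells 30.8% and 51.2% (812 and 1107). Plasmacytoid dendritic cells numbered 294 and 85, dendritic cells 47 and 78, T cells 366 and 380, and NK cells 72 and 58. Over the named classes, a B lineage stage had the highest CPM of each gene except Irf8, whose level was highest in plasmacytoid dendritic cells, in both libraries. Several of the genes were also read in myeloid or stem classes, such as Ikzf1 in neutrophils (555 and 543 CPM in femur and ectopic), Irf8 in monocytes (464 and 427 CPM) and Erg in stem and early progenitor cells (198 and 181 CPM). The stem class held 65 femur and 13 ectopic cells, too few in the ectopic library for a ratio.

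Along the B lineage the 10 genes fell into 3 groups by the stage at which they were highest, and the stage was the same in both tissues for every gene. Lef1 and Erg were highest in pro-B cells. Sox4, Bach2, Ikzf1 and Irf4 were highest in small pre-B cells. Pax5, Ikzf3, Irf8 and Spib were highest in immature B cells. Between pro-B and mature B cells, 7 of the 10 genes differed by more than 2-fold in each library, against 33.0% of 9776 genes (femur) and 32.6% of 9670 genes (ectopic). Ikzf3, Irf4, Irf8 and Spib were higher in mature B cells and Lef1, Sox4 and Erg lower, while Pax5, Bach2 and Ikzf1 stayed within 2-fold.

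**Figure D1:**
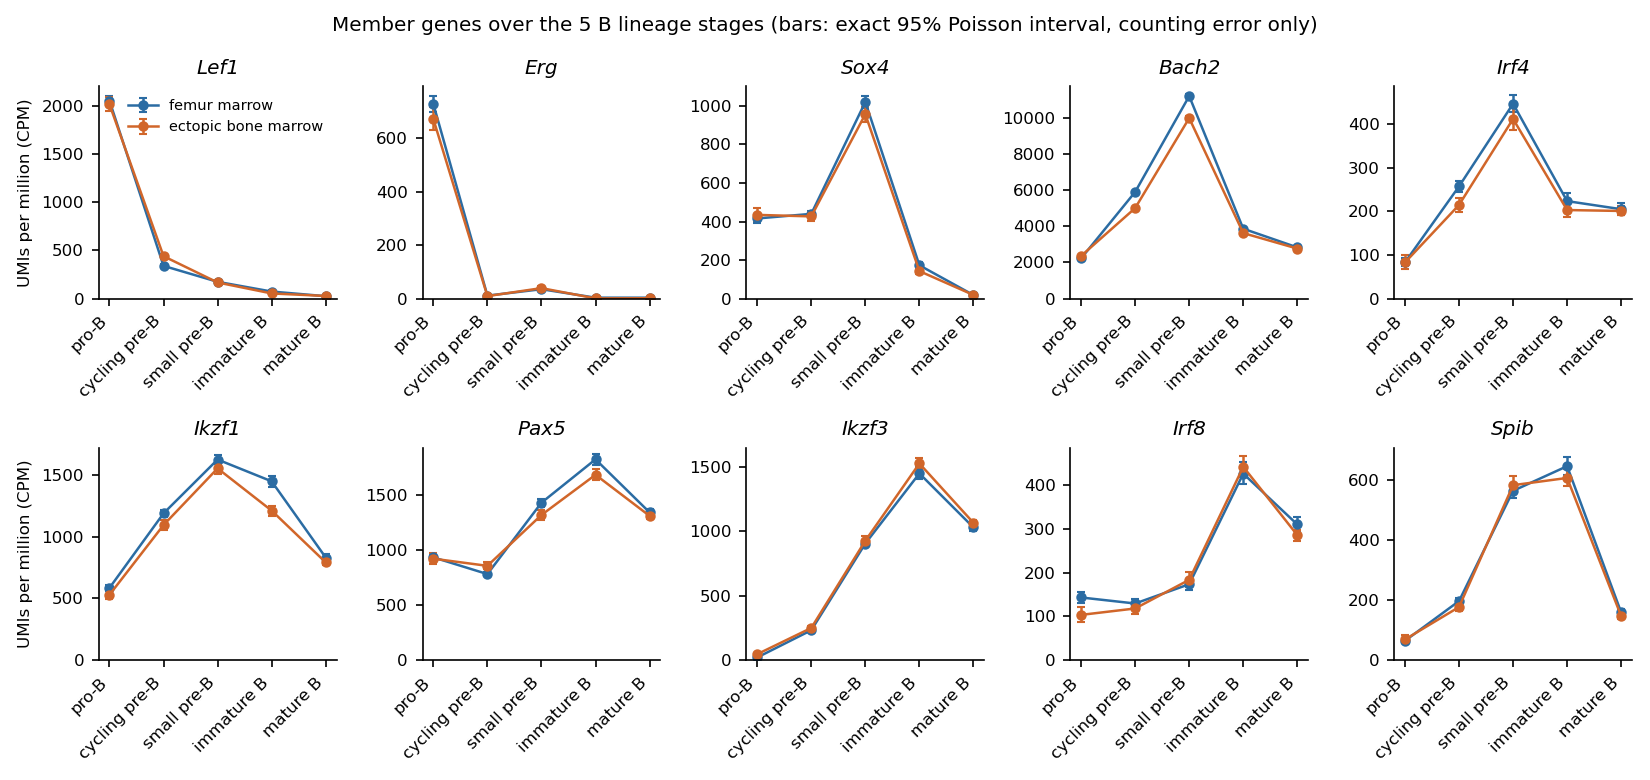
CPM of each of the 10 genes (vertical axis, one panel per gene) in the 5 B lineage stages in order of development (horizontal axis), for the femur and the ectopic library. Error bars are exact Poisson 95% intervals of the summed UMIs. In each panel the 2 lines peak at the same stage, and the lines of Lef1 run from 2050.5 and 2013 CPM in pro-B cells to 25.7 and 28.0 CPM in mature B cells.

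Lef1, a nuclear partner of β-catenin needed for the growth of early B cells, reached 2050.5 CPM in pro-B cells of the femur and 2013 CPM in those of ectopic marrow. Its level was 339.8 and 440.1 CPM in cycling pre-B cells, 175 and 168 CPM in small pre-B cells, 73.9 and 54.2 CPM in immature B cells, and 25.7 and 28.0 CPM in mature B cells. Each step was downward in both libraries. The pro-B level was 79.7-fold the mature level in the femur (95% interval 66.5 to 96.5) and 71.8-fold in the ectopic library (62.2 to 83.2). After every cell was thinned to 2000 UMIs, a Lef1 UMI was found in 95.02% of femur and 95.8% of ectopic pro-B cells, but in 4.43% and 4.16% of mature B cells (99.6%, 100%, 8.50% and 7.50% before thinning). In plasmacytoid dendritic cells, where Lef1 was near 0, the thinned shares were 0.344% of femur cells, at a median of 12486.5 UMIs, and 0 of 85 ectopic cells, at 15097 UMIs (exact 95% upper bound 4.25%).

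Erg, an ETS factor best known from stem cells and endothelium, had the largest fold of the 10 genes between pro-B and mature B cells. It reached 728 CPM in pro-B cells of the femur and 671 CPM in those of ectopic marrow, and 11.4 and 9.62 CPM in cycling pre-B cells. In small pre-B cells it stood at 35.4 and 39.4 CPM, above the cycling stage in both libraries. Immature B cells had 3.73 and 1.06 CPM, from 10 and 3 UMIs, and mature B cells 3.71 and 1.68 CPM, from 17 and 12 UMIs, so these last stages cannot be ordered. The pro-B level of Erg was 196-fold the mature level in femur (122 to 338) and 399-fold in ectopic cells (227 to 775), intervals that overlap.

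Sox4, which supports the survival of early B cells, did not follow Lef1. It was read at 416 and 434 CPM in pro-B cells and at 439.7 and 427 CPM in cycling pre-B cells, a step within counting error in both libraries. Small pre-B cells held 1019.95 CPM (femur) and 956 CPM (ectopic), above both earlier stages. The level then fell to 173 and 143 CPM in immature and 18.7 and 19.2 CPM in mature B cells. From small pre-B to mature cells the drop was 54.4-fold in femur (44.0 to 68.2) and 49.8-fold in ectopic cells (41.9 to 59.6).

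Bach2, which is induced by Pax5 and takes part in the checkpoint of the pre-B cell receptor, rose from 2226 and 2360.4 CPM in pro-B cells to 5896.5 and 5004 CPM in cycling pre-B cells. It peaked in small pre-B cells, with 11193.5 CPM (femur) and 9977 CPM (ectopic). Immature B cells had 3865 and 3624 CPM and mature B cells 2833 and 2767 CPM. Peak and lowest stage, pro-B, differed by 5.03-fold in femur (4.91 to 5.15) and 4.23-fold in ectopic cells (4.08 to 4.38).

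Irf4 and Ikzf1 shared the small pre-B peak. Irf4, which with Irf8 promotes light chain rearrangement, was read at 83.1 and 82.8 CPM in pro-B, 257 and 214 CPM in cycling pre-B, 446 and 411 CPM in small pre-B, 223 and 203 CPM in immature and 205 and 201 CPM in mature B cells. The last step was within counting error in both libraries. Ikzf1, which encodes Ikaros, was read at 585 and 529.5 CPM in pro-B, 1189 and 1095 CPM in cycling pre-B, 1625 and 1553 CPM in small pre-B, 1449 and 1211 CPM in immature and 831 and 792 CPM in mature B cells. Its whole range along the lineage was 2.78-fold in femur (2.64 to 2.92) and 2.93-fold in ectopic cells (2.71 to 3.17).

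Ikzf3, which encodes Aiolos, had the widest range among the genes that were low in pro-B cells. It stood at 21.1 and 46.5 CPM in pro-B cells, 232 and 250 CPM in cycling pre-B, 905 and 927 CPM in small pre-B, 1449 and 1526 CPM in immature and 1029.8 and 1066 CPM in mature B cells. Its mature level was 48.9-fold the pro-B level in femur (38.8 to 62.6) and 22.9-fold in ectopic cells (18.05 to 29.5). The intervals of these folds do not overlap, through the pro-B level that is taken up below.

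Pax5 varied least among the genes that peaked in immature cells. It was read at 934 and 922 CPM in pro-B, 782 and 857 CPM in cycling pre-B, 1431 and 1319.8 CPM in small pre-B, 1825 and 1685 CPM in immature and 1343 and 1311 CPM in mature B cells. Highest and lowest stage differed by 2.33-fold in femur (2.24 to 2.43) and 1.97-fold in ectopic cells (1.87 to 2.06). The lowest stage was the cycling one in both.

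Spib and Irf8 were the other genes with an immature peak. Spib, a relative of PU.1 that acts in B cell receptor signalling, was read at 64.6 and 69.1 CPM in pro-B, 197 and 177 CPM in cycling pre-B, 565 and 584 CPM in small pre-B, 647 and 608 CPM in immature and 159 and 147 CPM in mature B cells. In the ectopic library the small pre-B and immature levels of Spib differed by less than counting error. Irf8 was read at 143 and 103 CPM in pro-B, 129 and 118 CPM in cycling pre-B, 173 and 183 CPM in small pre-B, 425 and 441 CPM in immature and 309.5 and 285 CPM in mature B cells. Its first step was within counting error in both libraries.

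The genes also varied between sub-clusters. These were formed anew from all B lineage cells without the 10 genes and are therefore not subdivisions of the stage classes. The pro-B name fell to a sub-cluster led by Dntt, Auts2 and Emp1 (99 femur and 26 ectopic cells). It also fell to one led by Arpp21, Pcdh9 and Erg, with Vpreb1 among its leading genes (154 and 66 cells). Lef1 was 1431 and 1309.6 CPM in the first and 2827 and 2828 CPM in the second. Erg was 446 and 434 CPM in the first and 1139.7 and 958 CPM in the second. Bach2 was 1685 and 1734 CPM in the first and 3117 and 2853 CPM in the second. All 3 genes were higher in the second in both libraries. The sub-clusters also differed in the proliferation marker Mki67, which was 888 and 681 CPM in the first and 30.3 and 21.9 CPM in the second. The first sub-cluster also had Ngp, a neutrophil granule gene, among its leading genes, and its median of 21526 UMIs was above the 9018.5 of the second. The part of these in the levels was not tested.

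Lef1 and Sox4 also varied between the sub-clusters of dividing cells. An unnamed sub-cluster led by Cdca7, Ung and Dtl, genes of DNA replication, held 118 femur and 48 ectopic cells, with 508 and 639 CPM of Lef1 and 305 and 281 CPM of Sox4. In the sub-cluster led by H2ax, Nusap1 and Top2a (236 and 77 cells) Lef1 was 271 CPM in both libraries and Sox4 485 and 503 CPM. In the sub-cluster led by the mitotic genes Cdc20, Cdkn3 and Ccnb1 (54 and 24 cells) Sox4 reached 1109 and 1068 CPM and Spib 441 and 394 CPM, while Lef1 was at 439.5 and 636 CPM. Among sub-clusters with the small pre-B name, one was led by Il2ra (347 and 142 cells) and one by Reln and Rag1 (338 and 225 cells). Irf8 was 141 and 151 CPM in the first of these and 229 and 233 CPM in the second. Irf4 went the other way, with 516 and 523 CPM in the first and 384 and 354 CPM in the second.

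Later stages were also uneven. An unnamed sub-cluster led by Agbl1 and Ralyl (205 and 150 cells) had the highest Ikzf3 of the B lineage sub-clusters, 1670.3 and 1814 CPM, together with Spib at 748 and 772 CPM and Sox4 at 415 and 328 CPM. Bach2 was 3421 and 3285 CPM in the sub-cluster led by Rapgef4, Setbp1 and Cr2 (314 and 516 cells), which took the mature B name. The sub-clusters led by Hbb-bs and by Egr3 also took this name. Their Bach2 over both libraries together was 2717 and 2938 CPM. In one led by Fcrl5, Atxn1 and Nr3c2 (106 and 132 cells), which took no stage name, Bach2 was 1443 and 1582 CPM. The Rapgef4-led sub-cluster was thus above the Fcrl5-led one in both libraries.

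Within a stage, few of these genes lay past 1.5-fold between the tissues, about as few as among all genes. These counts therefore do not set the 10 genes apart. The shares over all genes take in every gene with at least 50 UMIs over both libraries. They are not matched in depth to the 10 genes. Across the 5 stages, 1 ratio of ectopic to femur CPM lay past 1.5-fold, that of Ikzf3 in pro-B cells. In pro-B cells this was 1 of 10 genes, against 10.8% of 8610 genes. In cycling pre-B cells it was 0 of 10 (7.10% of 9298 genes), in small pre-B cells 0 of 10 (6.67% of 8831 genes), in immature B cells 0 of 9 (6.74% of 8499 genes) and in mature B cells 0 of 9 (5.0% of 9866 genes). Erg had too few UMIs for a ratio in immature and mature B cells. The median log2 ratio of the genes was -0.012 in pro-B (all genes 0.0050), -0.13 in cycling pre-B (0.015), -0.062 in small pre-B (0.023), -0.12 in immature (0.00033) and -0.034 in mature B cells (0.00090).

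Ikzf3 in pro-B cells rested on few molecules. The femur class held 72 UMIs in 31 of 248 cells and the ectopic class 68 UMIs in 22 of 98 cells, for 21.1 and 46.5 CPM and a ratio of 2.21 (1.56 to 3.12). The 5 cells with the most UMIs held 47.2% of the femur and 57.4% of the ectopic molecules. After thinning to 2000 UMIs, 7.05% of femur (interval 4.16% to 11.1%) and 10.4% of ectopic pro-B cells (5.11% to 18.3%) had a UMI (12.5% and 22.4% before thinning), and these intervals overlap. The pro-B sub-clusters hold other cells than the class, and neither was higher in the ectopic library. The one led by Dntt had 95 and 14 UMIs, a ratio of 0.43 (0.22 to 0.75), and the one led by Arpp21 had 48 and 19, a ratio of 0.78 (0.43 to 1.36). With at least 1500 UMIs per cell the ratio of the class was 1.15, and with at most 5% mitochondrial UMIs it was 1.08.

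Ratios inside the 1.5-fold band could still leave counting error. Lef1 was higher in ectopic cycling pre-B cells, with a ratio of 1.30 (1.21 to 1.39), and lower in ectopic immature B cells, with 0.734 (0.590 to 0.910). Irf8 had a ratio of 0.722 in pro-B cells (0.598 to 0.869). Bach2 had 0.849 in cycling (0.833 to 0.865) and 0.891 in small pre-B cells (0.878 to 0.905), where its 47158 and 25038 UMIs made the interval narrow. With 1 library per tissue such shifts cannot be set against the spread between animals. In the same classes the femur cells carried more neutrophil RNA. The 10 neutrophil markers summed to 2756 CPM in femur and 1254 CPM in ectopic pro-B cells, and to 4309 and 1772 CPM in small pre-B cells. In neutrophils themselves Irf8 was read at 5.38 and 3.98 CPM and Bach2 at 20.6 and 12.3 CPM. The median depth was also lower in the femur, for example 14801 against 19530.0 UMIs in cycling pre-B cells. The part of either in the ratios was not tested.

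Pooled over all B lineage cells, some of the genes did differ between the tissues. Lef1 stood at 481 CPM in femur cells and at 298 CPM in ectopic cells, which is a ratio of 0.620 (0.599 to 0.641). Erg was read at 129 and 65.9 CPM, a ratio of 0.511 (0.476 to 0.548). These 2 of 10 genes lay past 1.5-fold, against 13.3% of 12500 genes, and both were lower in the ectopic library. Sox4 came next with 426 and 288 CPM (0.675), while Ikzf3 was higher in the ectopic library with 658 and 886 CPM (1.35, interval 1.31 to 1.38). Bach2 had a ratio of 0.799, Irf8 of 1.15, Pax5 of 1.06, Spib of 0.964, Irf4 of 0.894 and Ikzf1 of 0.888.

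A pooled level depends both on the mix of stages and on the level within each stage. The ectopic levels were therefore also computed with the stages weighted as in the femur. Pro-B cells supplied 16.1% of femur and 8.57% of ectopic B lineage UMIs, and mature B cells 21.6% and 41.8%. With the femur weights used for both libraries, 0 of 10 genes lay past 1.5-fold. The share over all genes was not computed with these weights. The ratio of Lef1 became 1.04 (1.01 to 1.08), that of Erg 0.926 (0.863 to 0.992), that of Sox4 0.959 (0.926 to 0.994) and that of Ikzf3 1.05 (1.02 to 1.07). The lowest weighted ratio was that of Bach2, 0.903 (0.894 to 0.911), and the highest that of Ikzf3. The weighted ratios of Pax5, Ikzf1, Irf4, Irf8 and Spib were 0.978, 0.921, 0.908, 0.949 and 0.970. Their pooled ratios were 1.06, 0.888, 0.894, 1.15 and 0.964, so those of Ikzf1, Irf4 and Spib moved little. The 2 pooled ratios past 1.5-fold, those of Lef1 and Erg, belonged to the genes that were highest in pro-B cells.

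**Figure D2:**
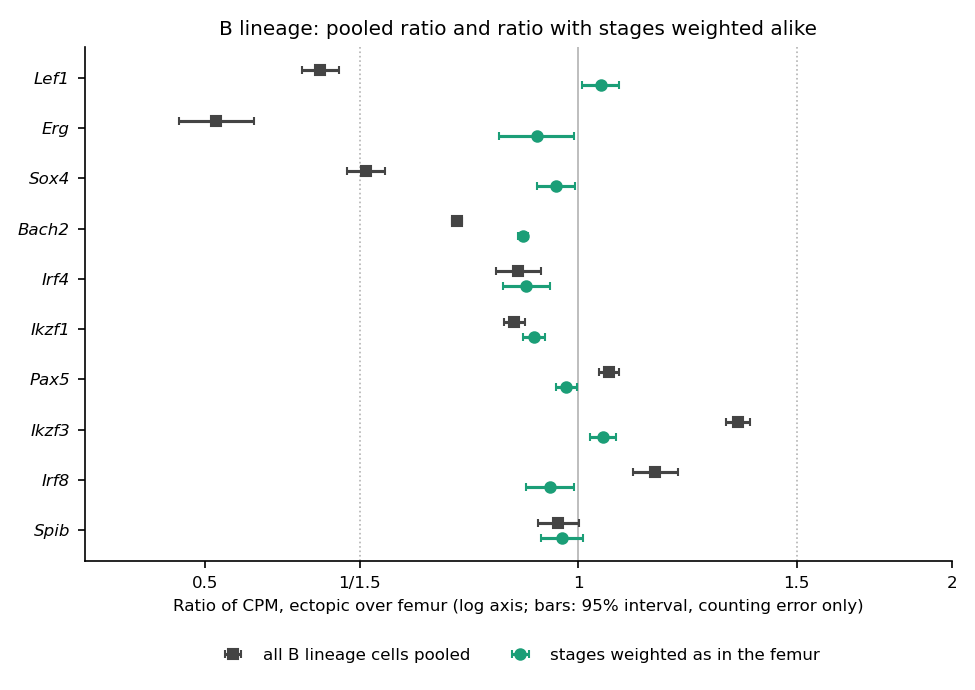
Ratio of ectopic to femur CPM for each gene (log axis) over all B lineage cells, pooled as counted and with the 5 stages weighted as in the femur, with 95% intervals of counting error and lines at 1.5-fold in either direction. Pooled values of Lef1 (0.620) and Erg (0.511) lie past the line, and the weighted values of all 10 genes lie between 0.903 and 1.05.

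Genes known as targets of Pax5 were read beside it. Of 10 genes that Pax5 is known to activate, 9 could be measured in pro-B cells, where 1 was higher in the ectopic library and none lower. In cycling pre-B cells 0 of 9 lay past 1.5-fold, in small pre-B cells 1 of 9 was higher, in immature B cells 1 of 10 was higher and 1 lower, and in mature B cells 0 of 9 lay past it. The higher gene was Id3, an inhibitor of E proteins, in each case, with 173 and 300.3 CPM in femur and ectopic pro-B cells. The lower one was the complement receptor Cr2, with 54.1 and 32.7 CPM in immature B cells. Cd79a, a signalling chain of the B cell receptor, stood at 1268 and 1239.7 CPM in pro-B cells and 1822 and 1979 CPM in mature B cells. Of 8 genes that Pax5 is known to repress, between 3 and 5 had enough UMIs in a stage. None of 3 lay past 1.5-fold in pro-B and in immature B cells. The integrin gene Itgal was lower in the ectopic library in cycling pre-B cells (11.6 and 6.73 CPM) and, with the cytokine receptor gene Flt3 (9.49 and 5.98 CPM), in small pre-B cells. The chemokine receptor gene Ccr2 was higher in mature B cells, with 4.80 and 7.43 CPM from 22 and 53 UMIs. Of all genes, 10.8% lay past 1.5-fold in pro-B, 7.10% in cycling pre-B and 6.67% in small pre-B cells. The share was 6.74% in immature and 5.0% in mature B cells. With so few genes per list, the counts do not set the Pax5 lists apart from all genes.

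In the wider list of 60 other lymphoid transcription factors, between 41 and 44 were measured in each stage. In pro-B cells 2 of 42 were higher and 1 lower in the ectopic library, beside 10.8% of all genes past 1.5-fold in either direction. In cycling pre-B cells 2 were higher and 3 lower of 42 (all genes 7.10%), and in small pre-B cells 1 and 2 of 41 (6.67%). In immature B cells it was 1 and 2 of 43 (6.74%), and in mature B cells 0 and 1 of 44 (5.0%). The counts were not tested against these shares. Id3 also belongs to the Pax5-activated list above, so its ratios are counted in both lists. Id3 was 65.7 and 133 CPM in small pre-B cells, a ratio of 2.02 (1.72 to 2.38), and 122 and 187 CPM in immature cells, 1.53 (1.33 to 1.76). Myc, the growth regulator, was 11.3 and 27.2 CPM in cycling pre-B cells, a ratio of 2.42 (1.74 to 3.36), but 26.5 and 11.6 CPM in immature B cells, 0.438 (0.281 to 0.671). Bcl11a, a zinc finger factor of early lymphocytes, was 106 and 176 CPM in cycling pre-B cells, a ratio of 1.66 (1.48 to 1.86). Myb was 122 and 63.7 CPM in immature B cells, a ratio of 0.524 (0.434 to 0.630). The median log2 ratio of the list was between -0.076 and 0.013 in the 5 stages.

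Plasmacytoid dendritic cells, the producers of type I interferon, had the highest Irf8 of all classes, with 3449 CPM in 294 femur cells and 3177 CPM in 85 ectopic cells, a ratio of 0.921 (0.890 to 0.954). After thinning, 99.3% and 100% of these cells had an Irf8 UMI, against 2.58% and 4.35% of T cells, whose median depths were 8214 and 10418 UMIs. Before thinning the shares were 99.7% and 100% of plasmacytoid cells and 11.7% and 16.1% of T cells. Spib was read at 239.9 and 245 CPM, Ikzf1 at 1116 and 1134 CPM, Bach2 at 399 and 329 CPM, and Irf4 at 27.9 and 34.7 CPM. Ikzf3 was low with 16.6 and 14.8 CPM. Pax5 stood at 3.80 and 4.43 CPM, near its 5.34 and 3.72 CPM in neutrophils, and Lef1 and Erg had at most 20 UMIs in a library.

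Sox4 was the gene that lay past 1.5-fold in this class, 1 of 7 measured against 8.48% of 8607 genes. Femur cells had 149.8 CPM of it (138 to 163) and ectopic cells 90.03 CPM (74.8 to 107), for a ratio of 0.601 (0.490 to 0.733). The 5 ectopic cells with the most Sox4 held 62.3% of its 122 UMIs, and the 5 such femur cells held 21.7% of 552. The sub-clusters of the class differed widely in Sox4. One led by Pid1, Auts2 and Cd93, which carried 858 and 225 CPM of the plasmacytoid marker Siglech and was left unnamed, held 48 femur and 4 ectopic cells, 16.3% and 4.71% of the class, and 413 and 182 CPM of Sox4. Another led by replication genes such as Pclaf and Uhrf1 held 16 and 3 cells, with 227 and 539 CPM. In the Cox6a2-bearing sub-cluster of 78 and 29 cells Sox4 was 156 and 87.1 CPM, a ratio of 0.56 (0.38 to 0.81). With the sub-clusters weighted as in the femur, a setting added after the data were seen, the ratio of Sox4 over the class was 0.686 (0.552 to 0.852), inside the 1.5-fold band. Here the 4 and 3 ectopic cells of the Pid1-led and Pclaf-led sub-clusters carry the femur weights. The weighted ratio therefore rests in part on few cells. The median log2 ratio of the 7 genes was -0.12 (all genes -0.0014).

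Dendritic cells were few, with 47 femur and 78 ectopic cells, and 4 of the 10 genes could be measured. None lay past 1.5-fold, against 14.8% of 5557 genes. Irf8 was read at 639 and 893 CPM, a ratio of 1.40 (1.24 to 1.58). Bach2 was read at 723 and 534 CPM, Ikzf1 at 524 and 409.7 CPM and Irf4 at 81.1 and 67.3 CPM, with ratios of 0.740, 0.781 and 0.829. The other 6 had too few UMIs for a ratio, namely Pax5 with 2 and 9, Lef1 with 1 and 2, Sox4 with 8 and 10, Erg with 1 and 1, Ikzf3 with 1 and 11 and Spib with 20 and 27. The median log2 ratio of the 4 genes was -0.31 (all genes -0.026). The class was not recovered under several other ways of clustering.

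Within the dendritic class the sub-cluster with the most Irf8 had almost no Irf4 in both libraries, while the other sub-clusters had both genes. A sub-cluster with the type 1 markers Xcr1 and Tlr3, cells specialised in cross-presentation, held 7 femur and 18 ectopic cells. Its Irf8 reached 2160.3 CPM among femur cells (1904 to 2442) and 2485 CPM among ectopic cells (2335 to 2642), and Irf4 had 0 and 1 UMIs. A sub-cluster led by Ccl5 and the type 2 marker Mgl2 held 13 and 34 cells, with Irf8 at 93.5 and 109 CPM and Irf4 at 64.7 and 91.8 CPM. The remaining 27 and 26 cells, led by Gria3, Cd7 and Sntb1 and left unnamed, had Irf8 at 257 and 206 CPM, Irf4 at 125 and 103 CPM and Bach2 at 1039 and 791 CPM. The type 1 sub-cluster supplied 256 of the 339 femur and 1028 of the 1168 ectopic Irf8 UMIs of the class.

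**Figure D3:**
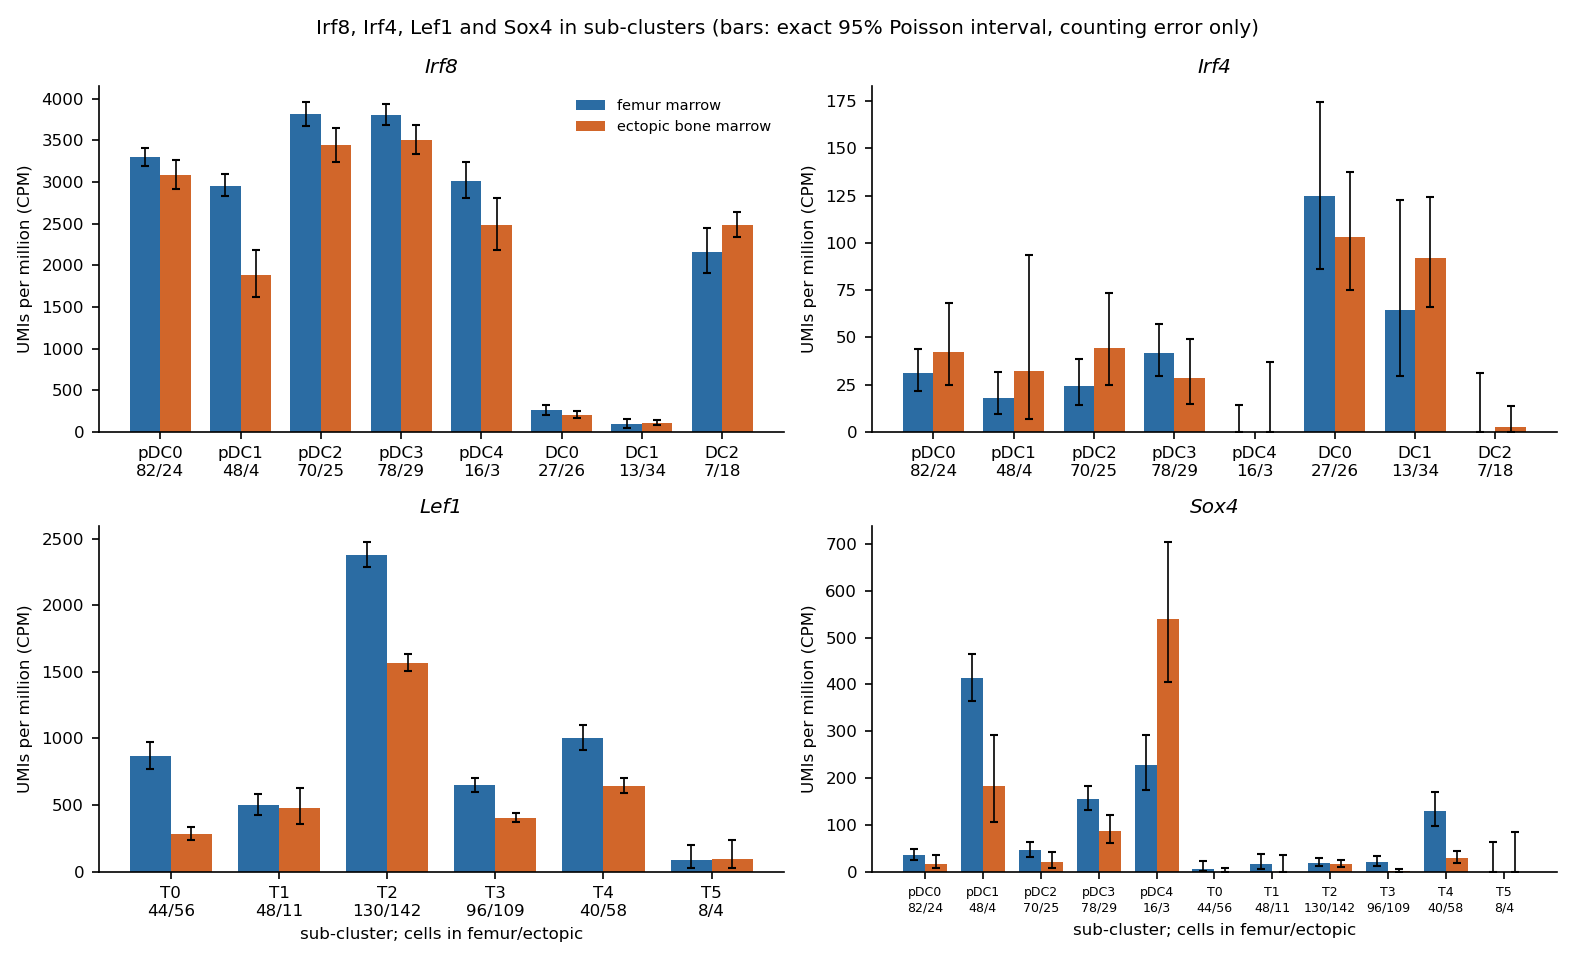
CPM of Irf8, Irf4, Lef1 and Sox4 (vertical axes) in the sub-clusters of plasmacytoid dendritic, dendritic and T cells (horizontal axes) for the femur and the ectopic library, with exact Poisson 95% intervals and the number of cells under each name (pDC1 is led by Pid1, pDC3 holds Cox6a2, pDC4 is led by Pclaf, DC0 by Gria3, DC1 holds Mgl2, DC2 Xcr1, T0 Foxp3, T1 Zbtb16, T2 Ccr7, T3 Klra7, T4 Eomes and T5 Il23r among its leading genes). Irf8 is high in every plasmacytoid sub-cluster and in the Xcr1-bearing dendritic one (2160.3 and 2485 CPM), and Lef1 in T cells is lower in the ectopic library in each of the 4 largest sub-clusters.

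T cells had the most genes past 1.5-fold of the 9 lymphoid and dendritic classes. Of 7 genes measured, 3 lay past 1.5-fold, against 7.45% of 9195 genes, with Lef1 and Sox4 lower and Irf4 higher in the ectopic library. Lef1 stood at 1295 CPM in femur T cells (1256 to 1336) and at 821 CPM in ectopic T cells (794 to 849), for a ratio of 0.634 (0.605 to 0.664). Sox4 was read at 32.3 CPM (26.3 to 39.3) and 11.3 CPM (8.32 to 15.05), a ratio of 0.3501 (0.242 to 0.4997), from 101 and 47 UMIs. Irf4, which rises on T cell receptor signalling, was read at 11.5 CPM (8.07 to 15.9) and 20.9 CPM (16.8 to 25.8), a ratio of 1.82 (1.22 to 2.76), from 36 and 87 UMIs. The median log2 ratio of the 7 genes was -0.24 (all genes -0.043). Lower ectopic levels of Lef1 and Sox4 were not confined to T cells. In monocytes Lef1 was 3.38 and 1.31 CPM (ratio 0.386) and Sox4 17.9 and 10.8 CPM (0.607). In neutrophils Lef1 was 2.42 and 1.46 CPM (0.602) and Sox4 2.70 and 1.02 CPM (0.378), all of them low levels.

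The other genes of T cells were closer together. Bach2 was read at 907 and 806 CPM, Ikzf1 at 1212 and 1027 CPM, Ikzf3 at 409.6 and 333 CPM and Irf8 at 19.5 and 26.5 CPM. Their ratios were 0.889 (0.845 to 0.934), 0.848 (0.811 to 0.886), 0.814 (0.753 to 0.878) and 1.36 (0.983 to 1.89). Pax5 had 24 UMIs in each library and Spib 2 and 8. Erg had 0 UMIs in both, which allows up to 0.960 CPM (femur) and 0.722 CPM (ectopic) at the level of 3 UMIs, with exact 95% upper bounds of 1.18 and 0.888 CPM. A UMI of Lef1 was found in 74.5% of thinned femur T cells (69.6% to 79.0%) and 64.1% of ectopic ones (59.0% to 69.0%), against 88.5% and 89.7% before thinning. For Sox4 the thinned shares were 4.87% and 1.36% (10.1% and 6.84% before thinning), and for Irf4 3.15% and 3.53%, with intervals that overlap (7.65% and 12.1% before thinning).

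Lef1 was lower in the ectopic library in each of the 4 large T cell sub-clusters. In the CD8 cells led by St8sia1, Igfbp4 and Ccr7 (130 femur and 142 ectopic cells) it was 2379 and 1570 CPM, a ratio of 0.66 (0.62 to 0.70). In the CD4 cells led by Frmd5, Foxp3 and Mki67 (44 and 56 cells) it was 867 and 282 CPM, a ratio of 0.32 (0.26 to 0.40). Top2a and Kif11, genes of dividing cells, were also among the leading genes of this sub-cluster, its Mki67 was 408 and 208 CPM, and Cd8b1 was read at 73.0 and 53.5 CPM, and their part in the ratio was not tested. In the CD8 cells with Eomes and Ly6c2 (40 and 58 cells) it was 1003 and 647 CPM, a ratio of 0.64 (0.56 to 0.74). In an unnamed sub-cluster led by Klra7 and Ncr1, genes of NK receptors (96 and 109 cells), it was 649.9 and 403 CPM, a ratio of 0.62 (0.55 to 0.70). A smaller unnamed sub-cluster led by Zbtb16, the factor of innate-like T cells, held 48 and 11 cells with 500.1 and 479 CPM.

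Sox4 and Bach2 were less even across T cells. Sox4 was 130.2 and 29.0 CPM in the CD8 cells with Eomes, a ratio of 0.22 (0.13 to 0.37), and this sub-cluster supplied 55 of the 101 femur UMIs of the class. Over the whole class, 5 T cells accounted for 49.5% of Sox4 UMIs among femur cells and 5 for 44.7% among ectopic ones. In the CD8 cells with Ccr7 it was 18.4 and 16.6 CPM. Bach2 was 669 and 280 CPM in the CD4 cells, a ratio of 0.42 (0.33 to 0.52), but 1453 and 1323 CPM in the CD8 cells with Ccr7, 0.91 (0.85 to 0.97). Irf4 was 33.5 and 76.1 CPM in the CD4 cells, from 11 and 37 UMIs. With the sub-clusters weighted as in the femur, also added after the data were seen, the ratio over all T cells was 0.642 for Lef1 (0.612 to 0.674), 0.313 for Sox4 (0.221 to 0.444) and 1.65 for Irf4 (1.11 to 2.43). The 9 NK markers summed to 890.3 and 955 CPM in the T class and the 10 neutrophil markers to 1749 and 1294 CPM, all of them detected in both libraries. Their part in the ratios was not tested.

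NK cells were the smallest of the lymphoid classes. None of 5 genes measured lay past 1.5-fold, against 10.7% of 4515 genes, and their median log2 ratio was 0.054 (all genes -0.019). Ikzf1 was read at 1209 and 1164 CPM, Bach2 at 576 and 642 CPM, Ikzf3 at 568 and 589.6 CPM and Irf8 at 350.1 and 377 CPM, all within counting error between the libraries. Lef1 was 269.9 and 186 CPM, a ratio of 0.687 (0.540 to 0.873). Its direction was the one seen in T cells, and the classes border each other in markers, with T cell markers summing to 975.1 and 902 CPM in NK cells. The other 5 genes had too few UMIs for a ratio, namely Pax5 with 12 and 5, Sox4 with 10 and 3, Erg with 1 and 0, Irf4 with 0 and 1 and Spib with 5 and 0.

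**Figure D4:**
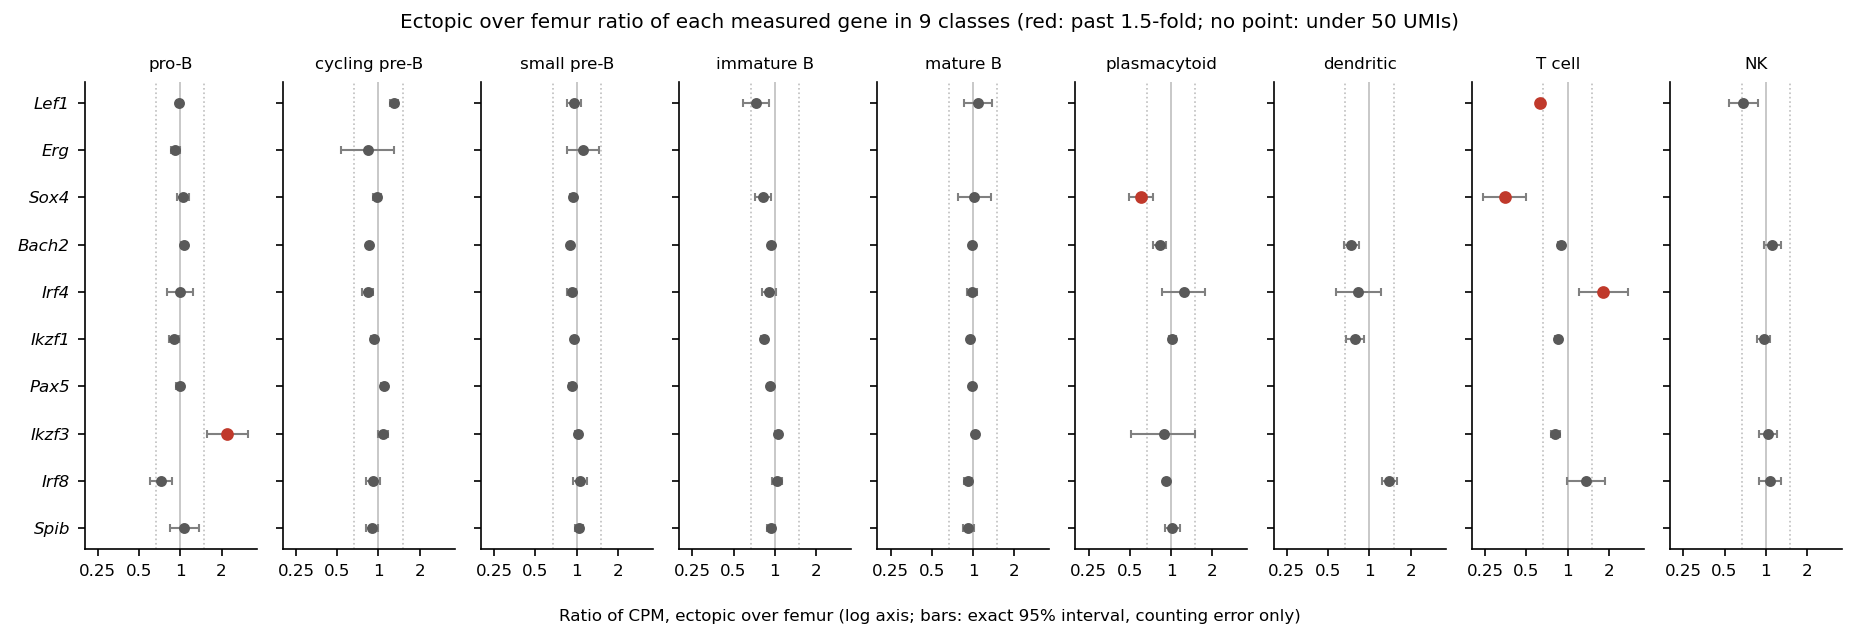
Ratio of ectopic to femur CPM (log axis) for each measured gene in the 5 B lineage stages, plasmacytoid dendritic, dendritic, T and NK cells, with 95% intervals of counting error. Ratios past 1.5-fold are drawn in red and number 5, namely Ikzf3 in pro-B, Sox4 in plasmacytoid dendritic and Lef1, Sox4 and Irf4 in T cells.

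The list of 60 other factors was also read outside the B lineage. In T cells 1 of 52 measured was higher and 6 lower in the ectopic library, beside 7.45% of all genes past 1.5-fold in either direction. In plasmacytoid dendritic cells 0 were higher and 6 lower of 44 (all genes 8.48%), in dendritic cells 2 and 2 of 39 (14.8%), and in NK cells 1 and 3 of 37 (10.7%). Zbtb16 was 129 and 18.1 CPM in T cells, a ratio of 0.140 (0.108 to 0.179), beside the 13.1% and 2.90% of T cells that the Zbtb16-led sub-cluster made up. Egr1, an early gene of receptor signalling, was 24.96 and 45.5 CPM in T cells, a ratio of 1.82 (1.39 to 2.41). Tox was 16.3 and 5.17 CPM in plasmacytoid dendritic cells (0.317), from 60 and 7 UMIs, and Bcl6 32.3 and 15.5 CPM (0.480). Batf3, which type 1 dendritic cells need, was 86.8 and 135 CPM in dendritic cells, a ratio of 1.56 (1.12 to 2.21). Relb, the NF-κB subunit of mature dendritic cells, was 37.7 and 71.1 CPM, a ratio of 1.88 (1.15 to 3.23).

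Other genes followed the same course over cell types as each of the 10. Profiles of log2(CPM + 10) were compared over 30 points, 15 classes in 2 libraries, among 11852 genes, and points of 1 class share cell type while points of 1 library share depth and background. Pax5 was closest to Cd79a (Pearson r 0.996). Spib was closest to Fcrla (0.979) and Ly6d (0.940), Ikzf3 to Rasgrp1 (0.957) and Cd2 (0.954), and Irf4 to Ighm (0.927) and Siglecg (0.921). Bach2 was closest to Zfp951 (0.944) and Cnot2 (0.943), and Sox4 to Nr6a1os (0.930) and Tmem263 (0.914). Lef1 was closest to Lef1os1 (0.919), a gene named as its opposite strand, and to Sit1 (0.888). The counting strand is not given in the sources used here, so reads of Lef1 and Lef1os1 may not be separable. Erg was closest to Ccm2l (0.862) and Kif17 (0.829), Ikzf1 to Mir142hg (0.859) and Exoc6 (0.847), and Irf8 had Ly86 (0.845) among its closest.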

How the data were processed

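Whole-number UMI counts per gene and cell were deposited by the authors as 1 filtered matrix per tissue. Per the file headers they come from Cell Ranger 7.0.1, and the submitters' processing notes name the genome build GRCm39. Cells came through Chromium 3ʹ v3.1 chemistry per the labels' protocols. Whether introns were counted is not given in the sources used here. Barcodes needed 500 UMIs, 300 genes and no more than 10% of UMIs from mitochondrial genes, which left 10665 femur and 6794 ectopic cells. Doublets were scored with Scrublet in each library, and the cells with the highest scores were left out (910 and 369). Their number was set beforehand at 0.8% per 1000 cells, so it follows from the size of the library. Both libraries were clustered together in scanpy 1.11.5 (2000 variable genes without the 10 genes, 30 components, 15 neighbours, Leiden resolution 1, igraph 0.11.9), and clusters were named from markers, at least 3 of them raised. UMIs were summed per class and library (scipy 1.17.1). With 1 library per tissue no test was made. All 10 genes were named in every lymphoid and dendritic class, by UMIs where those were too few for a ratio, with the 2 highest and 2 lowest ratios of other listed factors per class as candidates for mention and the 2 genes of most similar profile. The genes, lists and rules were chosen with earlier results of these data known. edgeR 4.0.16 served for TMM scaling, 1 of the alternatives. Some genes that these rules select are not reported here.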

Additional observations from a re-analysis of the deposited data

How the results depend on the processing

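The number of genes past 1.5-fold across the B lineage stages, 1 as reported, was 2 with at least 1500 UMIs per cell, 0 with at most 5% mitochondrial UMIs, 3 without doublet removal, 3 with each library clustered alone, 0 after thinning to 2000 UMIs, 2 with a minimum of 20 UMIs and 0 with a minimum of 200. For all B lineage cells, 2 as reported, it was 0 at a fold of 2. For the plasmacytoid, dendritic, T and NK classes, 4 as reported, it was 7 without doublet removal (counting genes that reached 50 UMIs only then), 7 with the mean of per-cell CPM, 2 with a minimum of 200 UMIs and 1 at a fold of 2. With stages weighted alike it stayed at 0 in every setting run, and the weighted ratios ranged from 0.801 (Erg) to 1.18 (Lef1). Single ratios were recomputed 873 times, with 741 within the counting interval of the reported value, 131 outside it and 1 reversed (a change of sign is counted only for ratios past 1.5-fold). The reversed one was Ikzf3 in pro-B cells, whose log2 ratio was -1.43 with each library clustered alone. Over the settings, Ikzf3 in pro-B cells ranged from 0.372 to 2.97 and was past 1.5-fold in the reported direction in 6 of 10. Lef1 in T cells ranged from 0.633 to 0.863 (past in 7 of 11), Sox4 in T cells from 0.3497 to 0.600 (10 of 10), Irf4 in T cells from 1.33 to 2.60 (9 of 10) and Sox4 in plasmacytoid dendritic cells from 0.286 to 0.854 (9 of 11). The 0.863 of Lef1 came with each library clustered alone, where the T class did not hold the same cells. That setting had 366 femur and 250 ectopic T cells and 72 and 188 NK cells. As reported, the ectopic library had 380 T and 58 NK cells. Over all B lineage cells Lef1 and Erg stayed past in 11 of 11 settings, and Sox4 was 0.603 with per-cell means and 0.604 after thinning. The causes were not tested. The dendritic class could not be had in both libraries with at least 1500 UMIs, at most 5% mitochondrial UMIs, no doublet removal, Leiden resolution 0.5 or 2, or each library clustered alone. No paired analysis was possible because each tissue has 1 library.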

Other observations

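Some values lay outside the lymphoid and dendritic classes and were picked after they were seen. Irf8, which in myeloid progenitors favours monocyte over granulocyte fates, stood at 174 and 76.2 CPM in 274 femur and 171 ectopic myeloid progenitor cells (1247 and 360 UMIs), a ratio of 0.439 (95% counting interval 0.389 to 0.494). In the same cells Erg was read at 42.9 and 64.2 CPM, a ratio of 1.495 (1.27 to 1.76). The class joins a cluster of 131 femur and 58 ectopic cells led by Mpo and Elane and one of 143 and 113 cells led by Fcnb and Ms4a3, and the part of this mix in the ratios was not tested. Irf8 in monocytes stood at 464 and 427 CPM. Bach2 was read at 18.5 and 41.7 CPM in erythroid cells, from 67 and 103 UMIs. Sox4, highest in small pre-B cells, was also read in CAR stromal cells, at 207 and 167 CPM.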
